A study of Solanum lycopersicum with 6 samples.

Results

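The genes described here encode lycopene cyclases and enzymes that make xanthophylls from cyclic carotenes or convert xanthophylls into each other in tomato (Solanum lycopersicum). They were chosen by identifier, and 9 genes were listed: LCYE, LCYB1, CYCB, BCH1, BCH2, ZEP, CYP97A29, CYP97C11 and VDE. Of these, 4 have a row among the 8703 genes of the table used here: LCYE (Solyc12g008980.2), BCH2 (Solyc03g007960.3), ZEP (Solyc02g090890.3) and VDE (Solyc04g050930.3). The other 5 (LCYB1, CYCB, BCH1, CYP97A29 and CYP97C11) have none and were not analysed here. RNA was sequenced from fruit pericarp, the fleshy fruit wall, taken at the equator of greenhouse-grown fruit at 38 days after anthesis. The groups were transgenic lines called jmj7 and wild-type plants (WT), with 3 libraries each, in the Ailsa Craig background that both groups share. The title of the series names SlJMJ7, a histone demethylase, as the target and fruit ripening as the question; the labels give neither the construct nor how many lines or plants the jmj7 libraries came from.

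Carotenoids are made in plastids. Lycopene, the linear red pigment of ripe tomato, is the substrate at which the pathway branches. Epsilon cyclase acts on the branch that ends in lutein, a xanthophyll of green tissue. Beta cyclases lead to beta-carotene, which beta-carotene hydroxylases turn into zeaxanthin. Zeaxanthin epoxidase turns zeaxanthin into violaxanthin by way of antheraxanthin, and violaxanthin de-epoxidase reverses this in strong light, so that the pair forms the xanthophyll cycle of photosynthetic membranes. Violaxanthin also lies on the route to abscisic acid.

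Every gene of the deposited table had been selected by the authors for a difference between the groups, with an absolute log2 fold change above 1. The calls below were therefore set in advance and are no independent evidence, and only directions, sizes and levels carry information. The labels do not explain the prefix of the columns assigned to jmj7. This assignment was made because WT was the only other group, and each direction rests on it. The table's genes took 10937853 to 15254146 reads in the jmj7 libraries and 7508105 to 9155968 in the WT libraries. As a check of the labelled tissue, 3 genes of ripening fruit were listed. PG2a (Solyc10g080210.2), a polygalacturonase, had 1721285 reads over the jmj7 libraries and 11 over the WT libraries. RIN (Solyc05g012020.3) had 67047 and 57, and PSY1, described below, 983229 and 11554. All 3 were higher in jmj7, so they separate the groups and are a weak check of the tissue of the WT libraries. Markers of chlorophyll-containing green tissue moved with the group: of 29 listed, 26 were tested, of which 25 were lower and 1 was higher in jmj7, where 62.8% of all genes tested were lower. The one that was higher, SGR1, acts in chlorophyll breakdown; without it the list summed to 553 to 563 FPKM (reads scaled by gene length and library total) in jmj7 and 18134 to 18843 FPKM in WT. Of 5 epidermis markers, 3 have a row and summed to at most 0.141 FPKM in jmj7, with 2 of them (CD1 among these) at 0 reads, against 154 to 168 FPKM in WT. The part of these markers, or of ripening state, in the results below was not tested.

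LCYE, the epsilon cyclase gene, was far lower in jmj7 than in WT. The jmj7 libraries held 2, 5 and 7 LCYE reads and the WT libraries 371, 327 and 442. Divided by the deposited size factors (normalized counts), these were 1.88, 6.58 and 8.86 in jmj7, against 319, 306 and 338 in WT. Each jmj7 library lay far below each WT library. The means were 5.77 ± 3.56 normalized counts in jmj7 and 321 ± 15.8 in WT (SD, n = 3 each), so the replicates spread by 61.7% of the mean in jmj7 and by 4.93% in WT. The log2 fold change was -5.87 ± 0.419 (SE; edgeR's quasi-likelihood test, Benjamini-Hochberg adjusted p = 7.29e-24), or 58.7-fold lower in jmj7. The authors' deposited table gives -5.90. With only 14 reads over the jmj7 libraries against 1140 over the WT libraries, counting error alone spans 35.7-fold to 110-fold (exact 95% binomial interval around a pooled ratio of 60.2). Fewer expressing cells and less RNA per cell cannot be told apart in bulk pericarp, here and for the genes that follow.

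BCH2, the beta-carotene hydroxylase that is also called CrtR-b2, was higher in jmj7. The jmj7 libraries had 1743, 1781 and 1860.03 normalized counts and the WT libraries 626, 604 and 655. The groups did not overlap, and the lowest jmj7 library was above the highest WT library by far more than the spread within either group. Means were 1795 ± 59.5 normalized counts in jmj7 and 628 ± 25.5 in WT (SD, n = 3 each). BCH2 rose 2.85-fold (log2 fold change 1.51 ± 0.0529 SE, edgeR adjusted p = 3.45e-25). BCH1, its paralog, has no row, and the sources used here do not say how reads shared between such copies were counted.

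The xanthophyll cycle genes moved in opposite directions. ZEP, the epoxidase, had 1270, 1279 and 1283 normalized counts in jmj7, against 3175, 3263 and 3400 in WT. The jmj7 replicates were tight, with a coefficient of variation of 0.539%, and all lay below the WT libraries. That coefficient is below what counting error alone gives for their 1353, 971 and 1014 reads, so it does not measure precision. ZEP fell 2.57-fold in jmj7, with means of 1277 ± 6.88 normalized counts in jmj7 and 3279 ± 113 in WT (SD, n = 3 each) and a log2 fold change of -1.36 (standard error 0.0441; adjusted p = 3.07e-26 by edgeR). VDE, the de-epoxidase, had 775, 714 and 797 normalized counts in jmj7, against 226, 210 and 246 in WT. Again no jmj7 library reached the range of the other group, this time from above. VDE rose 3.34-fold, with means of 762 ± 43.3 normalized counts in jmj7 and 227 ± 18.2 in WT, and a log2 fold change of 1.74 (standard error 0.0803; adjusted p = 1.40e-21 by edgeR).

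**Figure D1:**
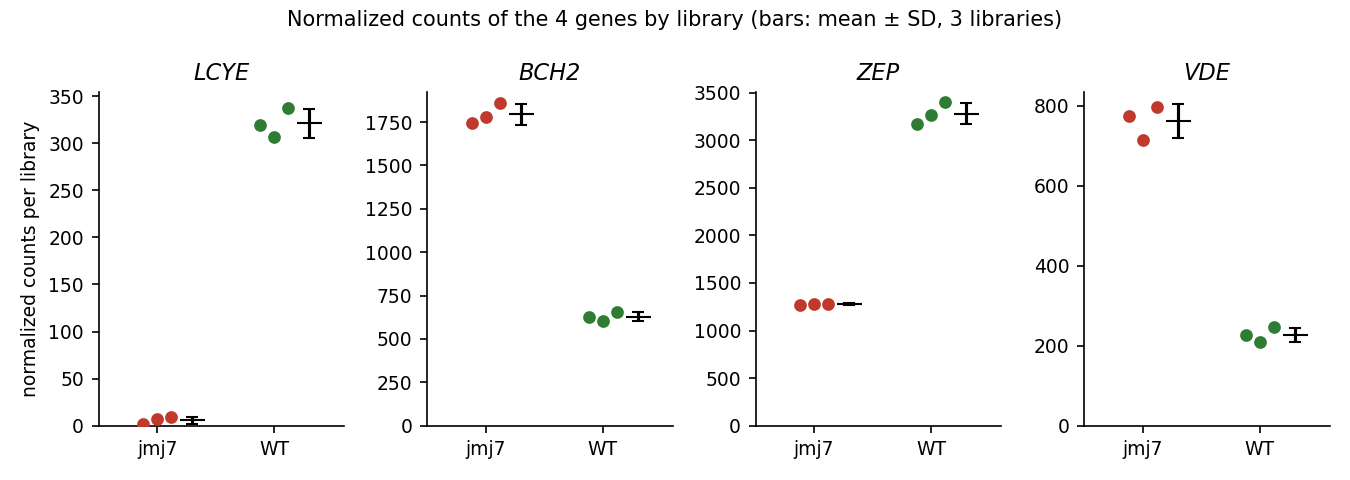
Normalized counts (read count divided by the deposited size factor) of LCYE, BCH2, ZEP and VDE in each of 3 jmj7 and 3 WT libraries, with mean and SD beside the points and a linear axis from 0 in each panel. LCYE (means 5.77 and 321) and ZEP (1277 and 3279) were lower in jmj7 than in WT, and BCH2 (1795 and 628) and VDE (762 and 227) were higher.

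Thus 2 of the 4 genes were higher and 2 lower in jmj7, where 37.2% of the 7622 genes tested were higher and 62.8% lower. All 4 were called, as were 100% of the genes tested, and in all 4 the groups did not overlap, which held for 99.7% of the genes tested. The median log2 fold change over the genes tested was -1.43 and over the 4 genes 0.07. The latter lies between ZEP at -1.36 and BCH2 at 1.51, and no gene of the table has a value near it. It does not mean that the 4 genes were unchanged. LCYE was among the larger decreases: 642 of the 4785 lower genes (13.4%) changed more. ZEP was among the smaller ones, since 82.7% of the lower genes changed more, and its log2 fold change of -1.36 lay close to the median of the whole table. Of the 2837 higher genes, 45.8% changed more than VDE and 56.7% more than BCH2. These ranks and medians cover only genes selected for an absolute log2 fold change above 1. They do not place the 4 genes among all genes of the genome.

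The sizes of all 4 changes moved with the scaling of the libraries by more than 1.5 times, while no direction turned under the 5 scalings run. Size factors were also estimated anew from the genes of the table alone. ZEP then had a log2 fold change of -0.13 (standard error 0.0467, adjusted p = 0.00837 by edgeR). BCH2 and VDE had 2.74 and 2.97 with these factors. With scaling to the total reads in the table, ZEP had -2.40, BCH2 0.47 and VDE 0.70. LCYE ranged between -6.90 and -4.66 over the same 5 scalings. Those recomputed and total-read scalings shifted the median of all genes by 1.23 and by -1.04 on the log2 scale, and each gene moved with the median.

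**Figure D2:**
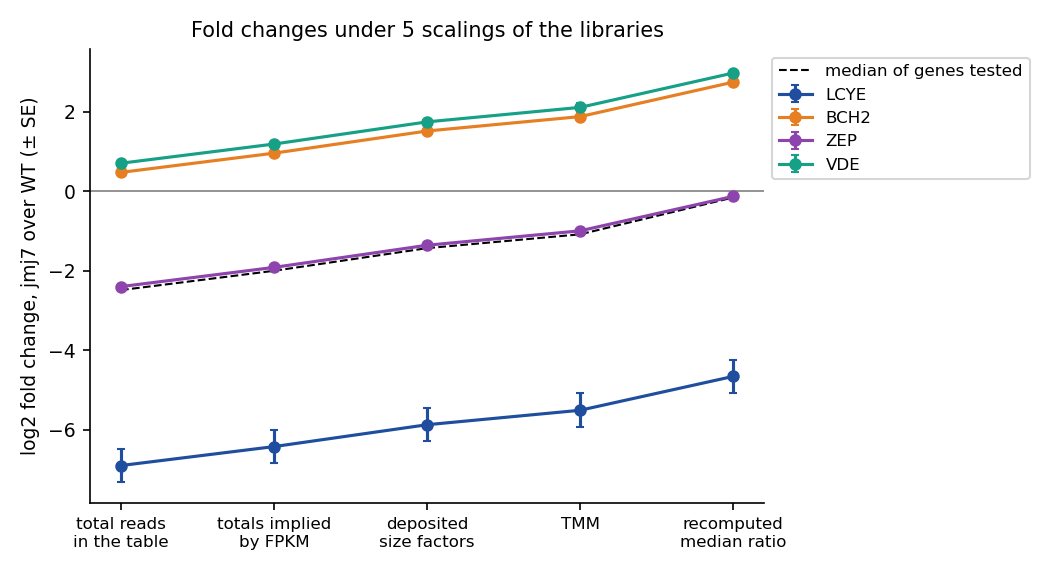
Log2 fold change, jmj7 over WT, with its SE for the 4 genes under 5 scalings of the libraries, and the median of the genes tested as a dashed line. The curves run in parallel; LCYE stayed at -4.66 or below, BCH2 and VDE stayed above 0, and ZEP followed the dashed median, between -2.40 and -0.13.

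Per gene length, the order of the 4 genes differed between the groups. In jmj7, BCH2 was highest at 51.9 ± 1.73 FPKM, followed by ZEP at 17.9 ± 0.0909, VDE at 15.8 ± 0.917 and LCYE at 0.0836 ± 0.0516 FPKM (SD, n = 3). In WT, ZEP was highest at 67.6 ± 1.98 FPKM, followed by BCH2 at 26.8 ± 1.15, VDE at 6.95 ± 0.569 and LCYE at 6.85 ± 0.351 FPKM. VDE and LCYE overlapped in WT and could not be ordered there, with 6.36 to 7.498 and 6.48 to 7.17 FPKM over the libraries. ZEP and VDE in jmj7 were close, at 17.8 to 18.0 and 14.8 to 16.6 FPKM, without overlap. Set against the genes of the table, LCYE's mean FPKM was above that of 20.3% of them in jmj7 and 54.6% in WT, and ZEP's above that of 78.8% in jmj7 and 91.6% in WT.

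**Figure D3:**
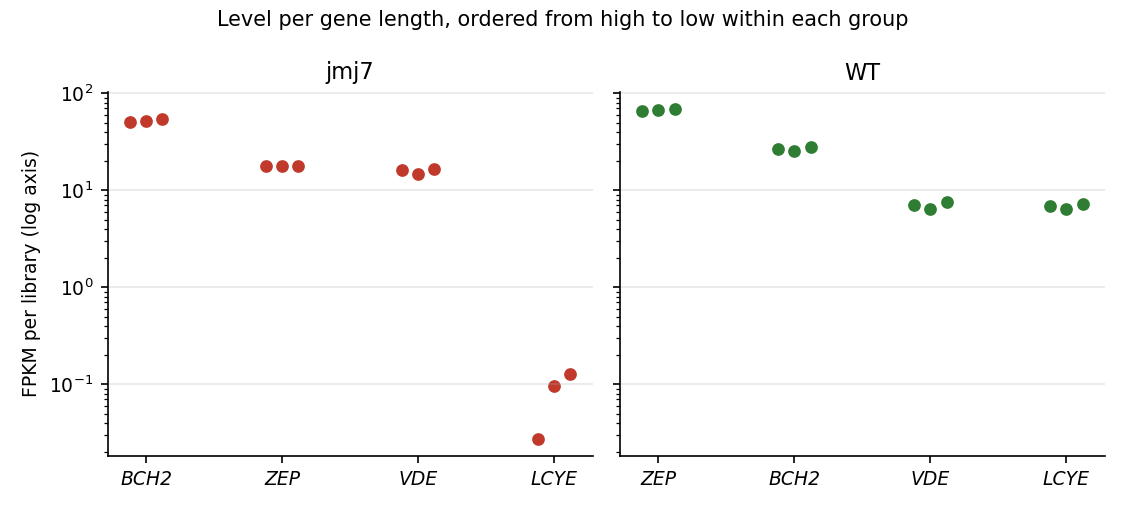
FPKM of the 4 genes in each library on a log axis, ordered from high to low by group mean, with jmj7 in the left panel and WT in the right. BCH2 leads in jmj7 (51.9 FPKM) and ZEP in WT (67.6 FPKM), and LCYE lies near VDE in WT (6.85 and 6.95 FPKM) but far below it in jmj7 (0.0836 and 15.8 FPKM).

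Ratios between genes of the same library do not depend on how libraries are scaled to each other. The ratio of VDE to ZEP FPKM was 0.906, 0.829 and 0.922 in jmj7, against 0.106, 0.0954 and 0.107 in WT. The de-epoxidase transcript thus came near that of the epoxidase in jmj7 and lay far below it in WT, and the mean ratio was 8.61 times as high in jmj7. The ratio of BCH2 to ZEP was 2.84, 2.88 and 2.996 in jmj7, against 0.408, 0.383 and 0.398 in WT, with a mean 7.34 times as high in jmj7. BCH2 and VDE changed less in proportion to each other. The ratio of VDE to BCH2 was 0.319, 0.288 and 0.308 in jmj7 and 0.260, 0.249 and 0.270 in WT. Its mean was 1.17 times as high in jmj7, and the groups did not overlap. These ratios were picked after the values had been seen and are given without a test.

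**Figure D4:**
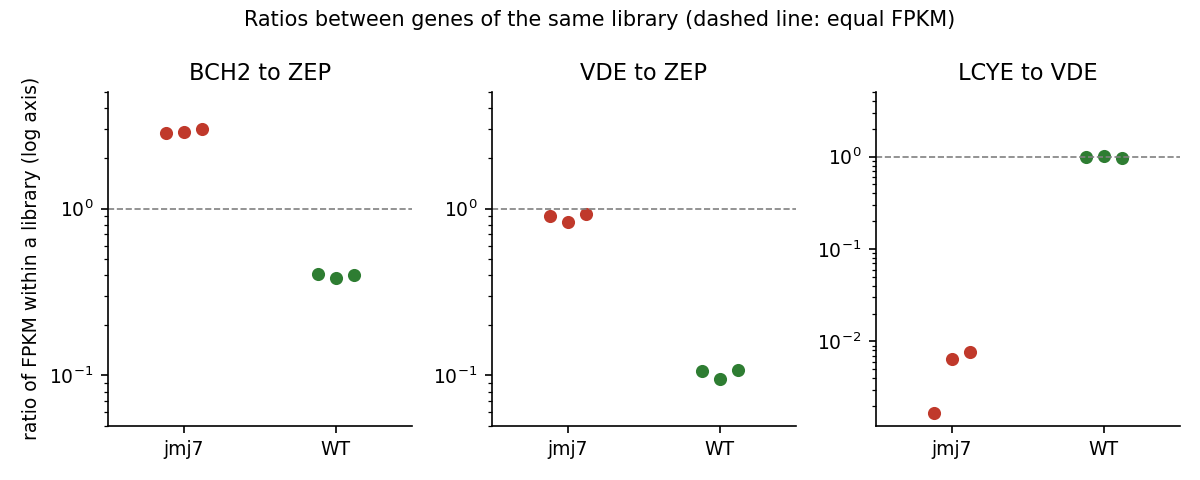
Ratios of FPKM within each library on log axes, with jmj7 left of WT and a dashed line at equal FPKM. BCH2 to ZEP was 2.84 to 2.996 in jmj7 and 0.383 to 0.408 in WT, VDE to ZEP was 0.829 to 0.922 in jmj7 and 0.0954 to 0.107 in WT, and LCYE to VDE lay below 0.01 in each jmj7 library and near 1 in each WT library.

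LCYE was also set against PSY1 (Solyc03g031860.3), the phytoene synthase that opens the pathway in ripening fruit. The log2 ratio of LCYE to PSY1, after adding 0.1 FPKM to each, was -15.39, -14.86 and -14.63 in jmj7, against -3.46, -3.40 and -3.29 in WT. The difference of means was -11.58, larger than the spread within either group (SD 0.391 in jmj7 and 0.0852 in WT). An exact two-sided permutation test gave p = 0.1, the smallest that 3 against 3 libraries can give. Both genes had been selected for a difference between the groups and moved in opposite directions. The p-value was therefore set in advance and is no independent evidence. Since LCYE in jmj7 lies near the added 0.1 FPKM, the size of this difference depends on it: it was -9.13 with 1 FPKM added. Of 15 pathway genes with a row that were set against LCYE in this way, 13 (86.7%) had a lower ratio of LCYE to the gene in jmj7. The share over the 7621 other genes tested was 93.8%, so this count follows the fall of LCYE itself and says nothing particular about the pathway genes.

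The wider pathway list held 27 identifiers, of which 15 were tested and 12 have no row. In jmj7, 11 were higher and 4 lower, against 37.2% higher and 62.8% lower of all genes tested, with a median log2 fold change of 2.01 against -1.43 over all genes tested. All 5 tested genes between phytoene and lycopene were higher: PSY1 with a log2 fold change of 6.85 ± 0.0366, ZISO (a carotene isomerase) with 6.73 ± 0.0388, CRTISO (the isomerase that yields all-trans lycopene) with 3.32 ± 0.0459, PDS (phytoene desaturase) with 2.20 ± 0.0375 and ZDS (a carotene desaturase) with 2.01 ± 0.0388 (SE). LCYE, the next step on the lutein branch, was the lowest of the 4 genes, and BCH2 and VDE rose by less than each of these 5.

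Of the 9 genes listed for isoprenoid precursors, 6 were tested, of which 5 rose and 1 fell, where each gene tested was called and 37.2% of them were higher. GGPPS2, a synthase of geranylgeranyl diphosphate, rose 65.8-fold, and DXS1, the entry enzyme of the plastid precursor route, rose 3.97-fold. Solyc02g085700.1, which has no symbol in the reference gene table, had a log2 fold change of 1.93. IDI1 and IDI2, isopentenyl diphosphate isomerase genes, went in opposite directions: IDI1 had 11075 ± 332 normalized counts in jmj7 and 2464 ± 68.1 in WT, and IDI2 had 108 ± 19.2 in jmj7 and 777 ± 17.2 in WT (SD, n = 3 each). HDS, of the same precursor route, had the smallest absolute log2 fold change of the tested pathway list with the deposited size factors, 1.23 ± 0.0337 (SE); with recomputed size factors IDI2 had it, at -1.59.

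Of the 10 identifiers listed for carotenoid cleavage, entry to abscisic acid synthesis and xanthophyll esters, 3 were tested. NCED2 (Solyc08g016720.1), a dioxygenase gene of the type that cuts epoxy-xanthophylls on the way to abscisic acid, fell to 7.20 ± 4.03 normalized counts in jmj7, against 924 ± 46.5 in WT (SD, n = 3 each), and with a log2 fold change of -7.04 (standard error 0.35; adjusted p = 1.38e-31 by edgeR) had the largest absolute change of the list with the deposited size factors; with TMM factors or recomputed size factors PSY1 had it, at 7.21 and 8.08. Its libraries held 18 reads in all in jmj7 and 3274 in WT. Solyc08g075490.3 was 51.7-fold lower and Solyc01g098110.3 was 30.2-fold higher in jmj7; the reference gene table has no symbol for either. Solyc10g079480.1, listed beside the cyclases and also without a symbol there, had 4 reads over the jmj7 libraries, all in replicate 3, and 53 over the WT libraries.

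**Figure D5:**
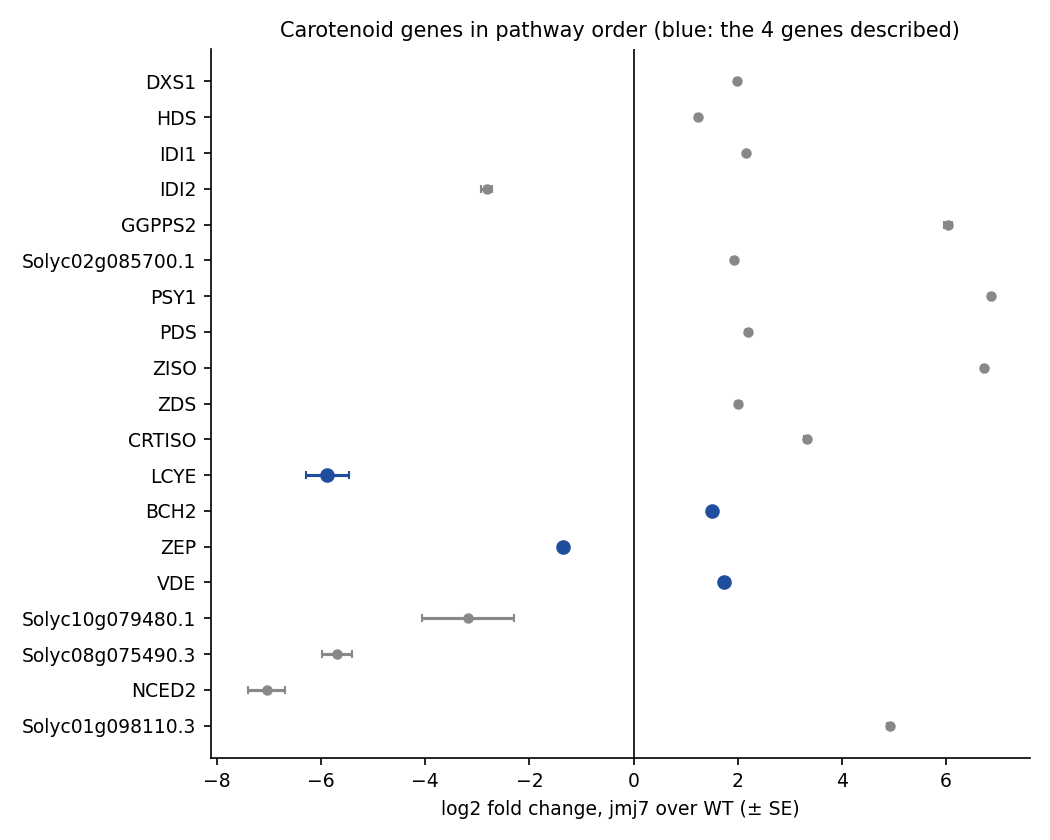
Log2 fold change, jmj7 over WT, with its SE for the 4 genes (blue) and the 15 tested genes of the wider list (grey), from precursors at the top to cleavage and later steps at the bottom. Genes up to lycopene lie right of 0 except IDI2, LCYE lies at -5.87, and the lowest point is NCED2 at -7.04.

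The genes whose profile lay nearest to that of LCYE, by Euclidean distance of log2(FPKM + 0.1) over 6 libraries, were Solyc06g051460.3 (distance 0.406) and Solyc10g008520.3 (distance 0.462), neither of which has a name in these sources. Solyc06g051460.3 had 0.0285, 0.0533 and 0.115 FPKM in jmj7, against 7.56, 7.004 and 7.53 in WT. Solyc10g008520.3 had 0.0710, 0.0745 and 0.1196 FPKM in jmj7, against 6.85, 6.66 and 7.05 in WT. Like LCYE, each had at most 9 reads in any jmj7 library.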

How the data were processed

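HISAT2 is named in the submitters' processing notes. Version, build, counter and strandedness: not given in the sources used here. For each gene and library the authors deposited read counts and FPKM values, per the file headers. A further deposited signal, here called normalized count, is the count over a size factor that is constant within a library. The deposited log2 fold changes, with their p-values, are from the authors' own comparison of jmj7 with WT. The deposited table holds 8703 genes with a p-value of at most 0.0499, so the depth of the whole libraries is not known from it.

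The test was edgeR's (version 4.0.16, R 4.3.3; quasi-likelihood, prior count 0.125, filterByExpr with a minimum count of 10, Benjamini-Hochberg adjusted p under 0.05 over the 7622 genes left, all 6 libraries), with the deposited size factors, since the table lacks unchanged genes. SEs are Wald errors and no smaller than counting error. Alternatives used limma 3.58.1, DESeq2 1.42.0, other scalings and filters, and omitted libraries. Intervals cover counting error only. Replicates differed by more than sampling noise (chi-square per gene 1.63 to 3.63). The labels do not say they are separate plants. The p-values therefore set differences against variation among these libraries, estimated partly across genes, which may not be that between plants. Gene names were accepted where the reference (assembly SLM_r2.1) has the symbol on the chromosome named by the identifier and in a compatible order, which held for 28 of 36 listed genes, all 9 listed cyclase and xanthophyll genes included. Named were these genes, the listed pathway genes with a row, the extremes of fold change among them, and the 2 nearest profiles to LCYE. The genes and lists were chosen with earlier results of these data known. The level of the targeted gene was not analysed here, nor were sequences.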

Additional observations from a re-analysis of the deposited data

How the results depend on the processing

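LCYE, BCH2, ZEP and VDE kept their direction and their side of the threshold in all 64 values under 16 alternatives each. Since the authors had selected these genes for the difference, this says little about robustness. With library totals implied by FPKM the log2 fold changes were -6.42 for LCYE, 0.95 for BCH2, -1.92 for ZEP and 1.18 for VDE, and with 1 FPKM added limma gave -2.86 for LCYE, whose jmj7 values lie far below 1 FPKM. Leaving out 1 library at a time gave -6.34 to -5.35 for LCYE, 1.48 to 1.54 for BCH2, -1.38 to -1.33 for ZEP and 1.69 to 1.80 for VDE. Of 64 counts of genes, 63 stayed within 1.5 times. With at least 5 FPKM in 3 libraries, 2607 of 4800 genes tested were lower in place of 4785 of 7622. Higher genes were 2193 in place of 2837, so that filter took out more lower than higher genes. The share of called genes that were higher was then 45.7%. With size factors recomputed over the table, 47.3% of the called genes were higher, against 37.2% with the deposited factors. In the pathway list, 11 genes were called higher and 3 or 4 lower under each alternative. The replicate number as a block gave 2837 higher and 4785 lower genes and -5.87 for LCYE. Deviations of same-numbered libraries had correlations of -0.028, 0.0224 and -0.0109, and those of differently numbered ones -0.0203 to 0.0370. No sign of pairing was seen, which does not exclude it. The ratio of LCYE to PSY1 differed by -11.74 to -11.36 without 1 library and by -12.60 from normalized counts. The value for LCYE rests on 14 reads in jmj7.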
